A study of Mus musculus with 2 samples.

Results

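The 33 genes described here encode the fibroblast growth factor (FGF) signalling system of the mouse: 18 secreted ligands, 4 intracellular FGF homologous factors, 4 receptors, the adapter Frs2, 4 feedback inhibitors and 2 transcription factor targets. They were taken as a fixed list of gene symbols out of 21646 protein-coding genes in GENCODE M21. CTCF ChIP-seq peaks came from the lungs of B6NCrl mice at postnatal day 0, with no genotype change or treatment named in the labels. There was 1 group of 2 replicates, labelled with a single biosample and donor, and differences between them may be technical. With 1 group the data allow no test between conditions, and all counts are descriptions set beside the same count over all protein-coding genes or all sites. A peak list holds no expression values, so the tissue label was not checked against marker genes. A site is a peak of the authors' optimal list, which was thresholded by the irreproducible discovery rate (IDR) and holds 64732 peaks on chromosomes 1 to 19 and X. Of these, 157 distinct sites had their summit in 1 of the 33 genes or within 25000 bp of either end. Among the 157, 42 lay inside a protein-coding gene outside the family. Coordinates are those of mm10 (GRCm38).

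FGF ligands bind receptor tyrosine kinases at the cell surface together with heparan sulfate, and the adapter Frs2 links the active receptor to the MAP kinase cascade. In the developing lung Fgf10 is made by the distal mesenchyme and acts on the Fgfr2 IIIb isoform of the epithelium, where it drives the budding and branching of the airways. Fgf9 comes from the mesothelium and the early epithelium and acts on the mesenchyme, and Spry2 is an inhibitor that the epithelium makes at the branch tips in response to Fgf10. CTCF recognises an asymmetric DNA motif through its zinc fingers. It stops cohesin as it extrudes chromatin loops, and loops form mostly between CTCF sites whose motifs point towards each other. In a whole tissue, binding in few cells and weak binding in many cells cannot be told apart.

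The bound sequences of the genes that the results turn on are shown with 30 bases around the CTCF core motif, read from the RefSeq GRCm38.p6 assembly. The core has 12 bases, was searched on both strands within 50 bp of the summit with at most 1 mismatch, and is printed in capitals 5′ to 3′ on the strand that carries it. The first 3 lines are the strongest sites with a core at the branching genes Fgf10, Fgfr2 and Spry2, and none of the Fgf9 sites had a core. The other lines are the strongest sites with a core at Fgf20, Fgf22, Fgf12, Fgf15, Fgf4 and Etv4, which lead their groups or mark a promoter.
Fgf10: tggtttcacCCACTAGAGGGCagtgggaca
Fgfr2: ctctgaaggCCAGAAGAGGGCgtcgggact
Spry2: ccgaaggagCCGCCAGGGGGCgagcgccag
Fgf20: ctgggtcagCCACTAGAGGACggtgtgctc
Fgf22: cggcattgaCCACCAGAGGGCacatggccc
Fgf12: cacttctgaCCATTAGGTGGCaccgttccc
Fgf15: gtgtcgcacGCACTAGGTGGCgcttcagcc
Fgf4: tactcccttCCAGCAGGTGGCagtggtctc
Etv4: cttcttattCCTGTAGATGGCagagttccc

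The Fgf10 sequence lies at chr13:118763165-118763194 on the plus strand, in an intron of Fgf10. The Fgfr2 sequence lies at chr7:130267295-130267324 on the minus strand, upstream of the gene. The Spry2 sequence lies at chr14:105899022-105899051 on the plus strand, also upstream of its gene. The others are at chr8:40296608-40296637 (Fgf20 intron, plus strand), chr10:79768581-79768610 (intergenic, downstream of Fgf22, plus strand), chr16:28490714-28490743 (Fgf12 intron, minus strand), chr7:144896008-144896037 (upstream of Fgf15, minus strand), chr7:144846349-144846378 (upstream of Fgf4, plus strand) and chr11:101763881-101763910 (a coding exon of Dhx8, downstream of Etv4, plus strand). The cores of Fgf10, Fgf22 and Fgf4 had no mismatch. The other 6 had 1 mismatch each, and the Spry2 core was the only one of the 9 with a CpG.

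A promoter site, with its summit within 1000 bp of a transcription start site (TSS) of a protein-coding transcript, was found at 16 of the 33 genes (48.5%), beside 39.8% of all protein-coding genes. The gene itself held a site in 19 of 33 genes, beside 56.1% of all genes. In the gene or within 25000 bp, 32 of 33 genes had a site, beside 83.5% of all genes. The median gene of the family had 4 sites in this window, as did the median protein-coding gene, and the numbers ranged from 0 at Fgf5 to 12 at Fgfr2. The median distance from a TSS to the nearest site was 1014 bp in the family and 2966 bp over all genes. Gene extents leave out transcripts of the lowest support level without a consensus coding sequence, because 1 such transcript stretches the Fgfr2 record to 2960.9 kb. With the full records, Fgfr2 had 150 sites in its window and the family 295. This extent was chosen after the data were seen.

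**Figure D1:**
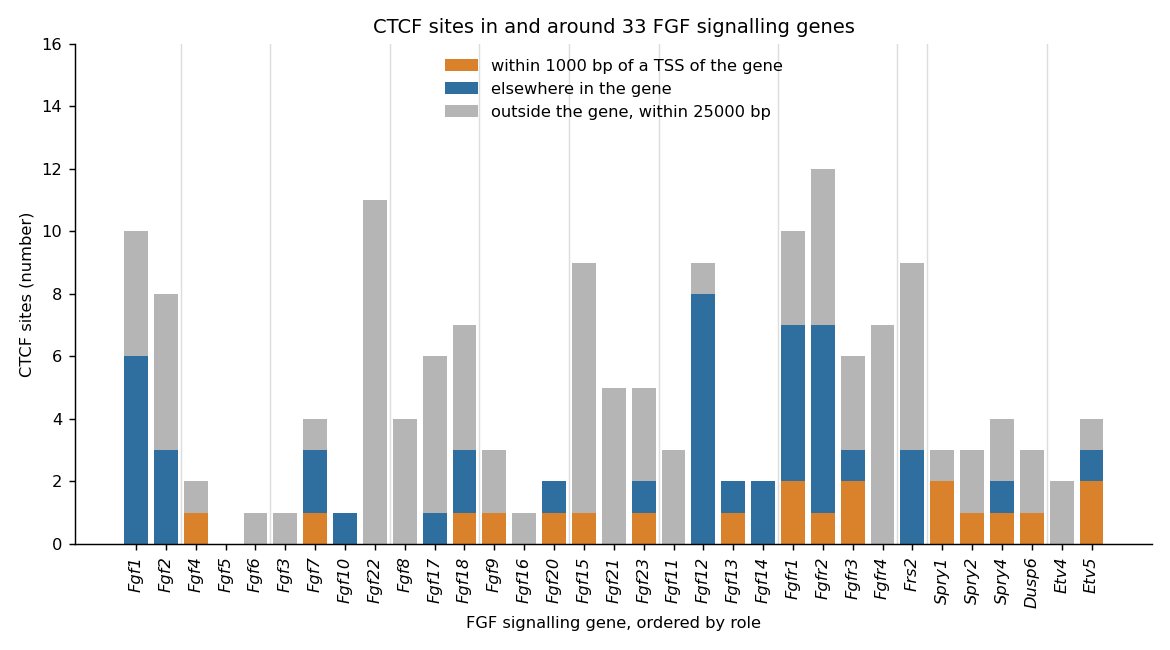
Number of CTCF sites (vertical axis) for each of the 33 genes, ordered by role along the horizontal axis, with pale lines between groups. Orange bars are sites within 1000 bp of a TSS of the gene, blue bars other sites in the gene and grey bars sites outside it within 25000 bp. Fgfr2 had the most sites (12), Fgf22 had 11 sites that were all outside the gene, and Fgf5 had none.

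The ligands and intracellular factors had a promoter site at 8 of 22 genes (36.4%). The receptors, adapter, inhibitors and targets had one at 8 of 11 genes (72.7%). By role, the promoter counts were 5 of 15 paracrine ligands, 2 of 3 endocrine ligands, 1 of 4 intracellular factors, 3 of 4 receptors, 0 of 1 adapter, 4 of 4 feedback inhibitors and 1 of 2 targets. The groups are too small for these shares to be read as particular to a role. The strongest promoter site of each of the 16 genes had a median signal of 45.8, beside 72.2 over all genes with a promoter site. It was above the median of the whole list, 76.2, at 6 of the 16 genes, beside 48.2% of all genes with a promoter site. Fgfr1, Fgfr3, Spry1 and Etv5, 4 of the 33 genes, had 2 promoter sites each, beside 10.4% of all genes with 2 or more.

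Fgf10, the ligand that drives branching, had 1 listed site in the gene and 25000 bp to either side. It lay in an intron at chr13:118763029-118763308, 48470 bp from the only protein-coding TSS, and carried the core without a mismatch. Its listed signal was 25.9, and the replicate peaks had signals of 19.4 and 5.42, so replicate 1 was far higher than replicate 2. The site was weak, with 13.1% of all sites below it, and it was not in the authors' conservative list. The next sites lay 72803 bp to the left and 491502 bp to the right of the gene, an interval of 686.6 kb that is longer than that of 90.4% of protein-coding genes. The gene extent starts at a transcript upstream of the protein-coding TSS, and the left site lay 117678 bp from that TSS. No other protein-coding gene overlapped the 25000 bp to either side.

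The Fgf10 promoter had no listed site, but it did have peaks below the IDR threshold. The pooled list held a peak of signal 22.1 at 145 bp downstream of the TSS. Within 100 bp of it, replicate 1 had a signal of 4.05 and replicate 2 had 18.3. The highest promoter peak of replicate 1 was another one, with a signal of 13.2 at 62 bp upstream of the TSS. That of replicate 2 had 18.3 at 118 bp downstream, so the highest peaks of the 2 replicates lay on opposite sides of the TSS. Each of these replicate peaks was among the 64732 highest of its own replicate, at rank 60229 in replicate 1 and rank 46916 in replicate 2. A promoter site at Fgf10 was therefore counted when either replicate was used alone, and not in the optimal or the conservative list. The intronic site ranked 47922 in replicate 1 and 119819 in replicate 2, so it was not among the 64732 highest peaks of replicate 2.

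Fgfr2, the receptor of Fgf10, had 12 sites, more than 94.8% of protein-coding genes, with 7 of them in the gene. The strongest lay 7097 bp upstream of the gene at chr7:130273225-130273500 with a signal of 453, and the replicates had 244 and 212. It was higher than 98.8% of all sites, and no core was found near its summit. A second strong site lay 1040 bp upstream at chr7:130267198-130267412, with a signal of 254 and replicate values of 128 and 126 that were nearly equal. This is the site whose minus-strand core is printed above, 6057 bp from the strongest one. Inside the gene, a site 1142 bp from a TSS had 139 (replicates 76.1 and 64.5), and an intronic site 82643 bp from the nearest TSS had 129 (replicates 63.2 and 66.1). The fifth strong site, 4744 bp upstream, had 120 (replicates 66.3 and 54.2). The 5 strongest sites were thus present at similar height in both replicates, and 4 of the 5 lay within 8 kb of the 5′ end of the gene.

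The only site within 1000 bp of an Fgfr2 TSS was weak by comparison. It lay 49 bp from an internal TSS, in a coding exon at chr7:130261766-130262045, with a signal of 18.8 (replicates 13.0 and 6.29). It was not in the conservative list, where the nearest peak lay 490 bp from a TSS. At that distance the pooled list held a peak of signal 29.2, higher than this site and absent from the optimal list. The remaining 6 sites of Fgfr2 had signals from 9.85 to 51.6, and the weakest of them had no peak in replicate 2.

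Fgf9, which signals to the mesenchyme, had 3 sites and none with a core. The site in the gene, at chr14:58075507-58075786, was 532 bp from an internal TSS and had a signal of 50.2 (replicates 23.0 and 26.5). A site downstream of the gene at chr14:58124695-58124974 had nearly the same signal, 49.6 (replicates 26.5 and 22.4). The third, 3095 bp upstream at chr14:58067312-58067591, had 16.2, with a peak of 8.64 in replicate 2 and none in replicate 1. All 3 were below the median of the list, and the nearest sites with a core lay 71.0 kb to the left and 102.2 kb to the right of the gene.

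Spry2, the feedback inhibitor of the branch tips, had 3 sites, all upstream of the gene. The nearest, 599 bp from the TSS at chr14:105897278-105897557, had a signal of 36.4, with 11.9 in replicate 1 and 22.4 in replicate 2. The strongest, 2212 bp upstream at chr14:105898889-105899156, had 352 (replicates 178 and 173) and a core on the plus strand. The third, 6208 bp upstream at chr14:105902965-105903092, had 145 (replicates 82.0 and 62.5) and a core without a mismatch on the minus strand. These last 2 cores pointed towards each other across 3996 bp. The promoter site was the weakest of the 3 and the only one outside the conservative list.

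**Figure D2:**
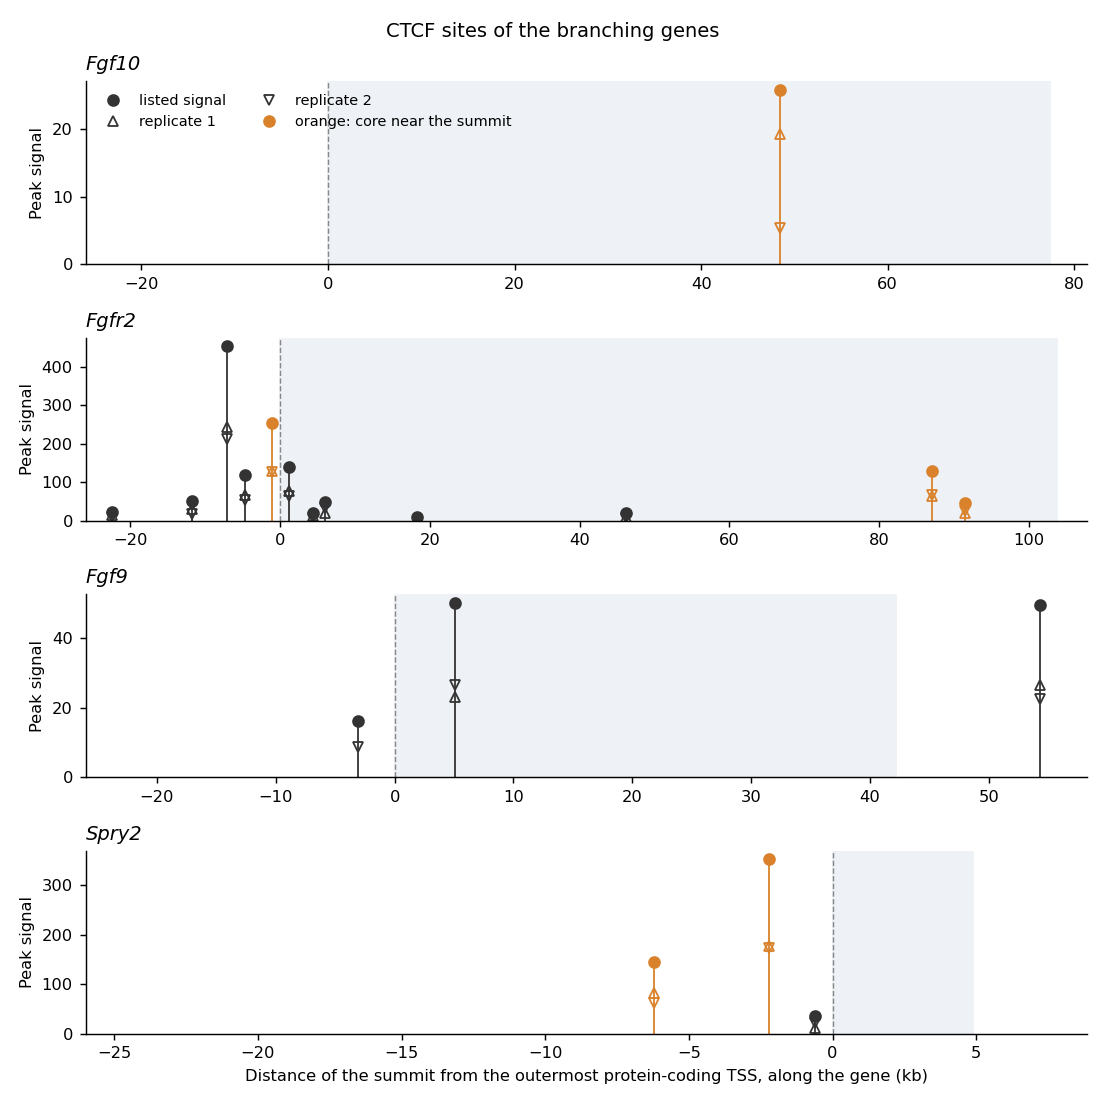
Signal of each site (vertical axis) against the distance of its summit from the outermost protein-coding TSS of the gene, along the direction of the gene (horizontal axis, kb), for Fgf10, Fgfr2, Fgf9 and Spry2. Filled circles are the listed signal, open triangles pointing up and down are replicates 1 and 2, orange marks a core, the shaded span runs from that TSS to the end of the gene, and each panel has its own scales. Fgf10 has 1 weak intronic site, Fgfr2 and Spry2 have their strongest sites upstream at 453 and 352, and the Fgf9 sites reach 50.2.

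Among the other paracrine ligands, the Fgf1 subfamily had many sites and none at a promoter. Fgf1, which binds all FGF receptors, had 10 sites, of which 6 were in the gene. Its strongest site, in an intron, had a signal of 447 (replicates 223 and 225). All 10 sites also lay in introns of Arhgap26 as annotated. Fgf2, which shares with Fgf1 the lack of a classical signal peptide, had 8 sites, and its strongest was 313 (replicates 156 and 158). That site lay 4510 bp downstream of Fgf2, in an intron of Nudt6. The nearest sites were 1157 bp from a TSS at Fgf1 and 1328 bp at Fgf2, just outside the promoter distance.

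Fgf5, a regulator of the hair cycle, was the only gene of the family with no site in its window. The nearest site lay 55560 bp from a TSS, farther than at 87.0% of protein-coding genes. The interval between the sites on either side was 112.1 kb. A peak below the threshold lay 35 bp from a TSS with a signal of 8.08, and neither replicate had a peak within 100 bp of it.

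Fgf7, which like Fgf10 is a mesenchymal ligand of the Fgfr2 IIIb isoform, differed from Fgf10 in having a promoter site. Its signal was 183 (replicates 100.5 and 79.4) at 136 bp from the TSS, at chr2:126034437-126034621. A second site 1054 bp upstream had 209 (replicates 95.9 and 114) and a core on the minus strand. Both sites also lay in introns of Fam227b as annotated. To the right of Fgf7 there was no site for 154487 bp. Fgf22, also of this subfamily, lay in a dense region with 5 other protein-coding genes in its window. It had 11 sites, none of them in the gene or nearer than 8498 bp, and its strongest had 423 (replicates 202 and 222).

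In the Fgf8 subfamily each gene had a site of signal 317 or more. Fgf8, a ligand of early patterning, had 2 strong sites upstream and none in the gene. The first, 3629 bp upstream, had 287 (replicates 136 and 150.1), and the second, 4756 bp upstream, had 317 (replicates 156 and 162). Both cores had no mismatch, and they pointed towards each other across 1127 bp. The strongest site of the subfamily was 352 (replicates 175 and 178), downstream of Fgf17 in an intron of Dmtn. Fgf18, which acts in alveolar and skeletal development, had a promoter site of 22.4 (replicates 12.4 and 11.8), while a site 1155 bp upstream, outside the promoter distance, had 318 (replicates 161 and 155).

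Besides Fgf9, its subfamily holds Fgf16 and Fgf20. Fgf20 had the strongest site of all 33 genes, with a signal of 487 (replicates 253 and 236). It lay in an intron at chr8:40296498-40296765 and was higher than 99.5% of all sites. The promoter site of Fgf20, 539 bp from a TSS, had 27.8 (replicates 15.7 and 11.4) and was also within 1000 bp of a TSS of Micu3. Fgf16 had 1 site, 1279 bp from its TSS, with 33.6 (replicates 14.0 and 19.8).

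Fgf3, Fgf4 and Fgf15 lie next to each other on chromosome 7, and 10 sites were counted over the 3 genes and their flanks. The site of signal 300.4 (replicates 158 and 143) at chr7:144846250-144846474 lay between Fgf3 and Fgf4 and had a core on the plus strand. It was the promoter site of Fgf4, 992 bp from the outermost TSS and 15011 bp from the other one. The promoter site of Fgf15, which in adults is the ileal hormone that restrains bile acid synthesis, had 333 (replicates 181 and 153) at chr7:144895885-144896129, with a core on the minus strand. The cores of these 2 sites pointed towards each other across 49642 bp, with Fgf4 between them. They were not adjacent sites. Weaker listed sites with a core lay between them, with signals of 32.5 (minus strand), 28.9 (plus strand) and 103 (minus strand). The next strong site, 11176 bp beyond the Fgf15 promoter site, had 299 (replicates 143 and 156) and also a minus-strand core. No listed site lay in Fgf3, Fgf4 or Fgf15 itself.

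**Figure D3:**
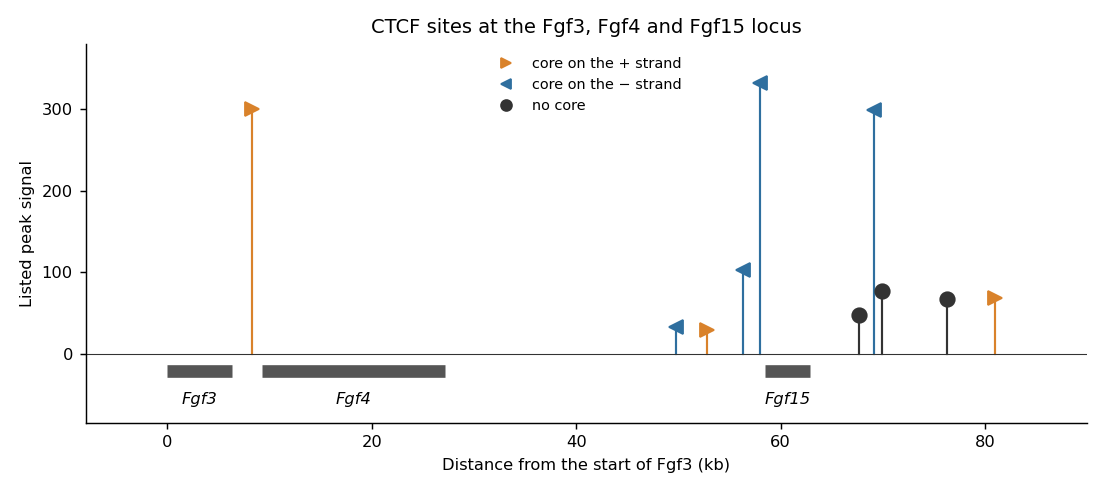
Listed signal of each site (vertical axis) against distance from the start of Fgf3 (horizontal axis, kb) at the locus of Fgf3, Fgf4 and Fgf15, with the genes drawn as grey bars under the axis. Triangles point in the direction of the core, orange for the plus strand and blue for the minus strand, and black circles had no core. The plus-strand site of signal 300.4 before Fgf4 faces the minus-strand site of signal 333 before Fgf15, with weaker sites on both strands between them.

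Fgf6 and the endocrine ligand Fgf23, a bone hormone of phosphate balance, are neighbours on chromosome 6. A site of signal 273 (replicates 145 and 128) with a minus-strand core lay between them and was the only one in the window of Fgf6. Fgf23 had a promoter site of 34.8 (replicates 18.6 and 15.5) in a coding exon 162 bp from the TSS. Fgf21, the third endocrine ligand and a hormone of the fasted liver, had 5 sites in its window and none nearer than 13485 bp. Its strongest, 386 (replicates 196 and 192), was in a UTR of Bcat2 and led the endocrine group.

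The intracellular factors bind voltage-gated sodium channels and do not signal through the receptors. Fgf12, Fgf13 and Fgf14 are long genes of 593.0, 505.9 and 699.2 kb, and most of their sites were intronic. Fgf12 had 8 sites in the gene, the most of the family. The strongest had 333 (replicates 162 and 172) in an intron. Fgf13 had 2 sites in the gene, and the one 868 bp from an internal TSS had 78.3 (replicates 33.8 and 41.7). Fgf11, a short gene of the same family, had no site in the gene, and its strongest had 309 (replicates 171 and 138), 2113 bp from a TSS in a coding exon of Tmem102. Fgf14 had 2 sites, with signals of 26.7 (replicates 9.30 and 17.0) and 89.8 (replicates 39.5 and 52.2). The family has 5 genes over 100 kb, the 3 above with Fgf10 and Fgfr2, and all 5 held a site, beside 94.8% of protein-coding genes of that length. They held a median of 0.818 sites per 100 kb of gene, beside 2.53 in all genes over 100 kb. The values ran from 0.286 at Fgf14 to 6.74 at Fgfr2, and the median is that of Fgf10. The extent of Fgf10 starts at a transcript upstream of its protein-coding TSS, and from that TSS the gene spans 77.4 kb. Genes from 10 to 100 kb held a site in 11 of 17 cases, beside 68.2%, and genes under 10 kb in 3 of 11, beside 26.2%.

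Fgfr1, the main receptor of many mesenchymal cells, had 10 sites with 7 in the gene. Its promoter site 11 bp from a TSS had 41.3 (replicates 21.5 and 19.8). A second promoter site had 17.5, with 8.72 in replicate 2 and no peak in replicate 1. The strongest Fgfr1 site, 346 (replicates 186 and 160.5), lay in a UTR at the 3′ end of the gene and had a core without a mismatch. Fgfr3, which limits bone growth, had promoter sites of 71.3 (replicates 42.6 and 32.3) and 57.4 (replicates 26.0 and 34.8), and its strongest site was 373 (replicates 187 and 188) downstream of the gene. Fgfr4 had 7 sites, none in the gene or at its promoter, and its strongest was 356 (replicates 195 and 160.1) downstream. Frs2, the adapter, had 9 sites and none at its promoter, and its strongest was 257 (replicates 129 and 128) in an intron.

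Each of the 4 feedback inhibitors had a promoter site. That of Spry1, a relative of Spry2, was the strongest, with 220 (replicates 105 and 115) at 885 bp from a TSS in an intron. A second Spry1 promoter site had 75.8 (replicates 32.0 and 40.9). The Spry4 promoter site had 27.2 (replicates 15.4 and 11.4). That of Dusp6, a phosphatase that inactivates ERK, had 29.1 (replicates 17.3 and 9.65). Dusp6 had no promoter site in the conservative list or among the highest peaks of replicate 2. Spry1 and Dusp6 had no core at any of their sites.

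Etv4 and Etv5 are ETS factors switched on by Fgf10 signalling in the distal lung epithelium. Etv5 had 2 promoter sites, the stronger with 86.2 (replicates 41.3 and 43.4) at 724 bp from a TSS and the weaker with 30.7 (replicates 20.9 and 10.8). Etv4 had no promoter site. Its strongest site, 258 (replicates 135 and 125), lay 21408 bp from a TSS in a coding exon of Dhx8.

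Over all 157 sites, the core was found at 69 (43.9%, 95% Wilson interval 36.4% to 51.8%), beside 48.3% of all other sites. It had no mismatch at 16, beside 12.4% of all other sites. These intervals cover counting error only. The core was found at 4 of the 20 promoter sites of the family (20%), beside 20.6% of all other promoter sites. It was found at 62 of the 126 sites that were at no promoter of any protein-coding gene (49.2%), beside 53.7%. By position, the median signal was 45.8 at promoter sites, 52.2 at the 45 other sites in the genes, 129 at the 40 sites upstream and 81.7 at the 52 sites downstream. The core was found at 15 of the 45 sites in genes, 23 of the 40 upstream and 27 of the 52 downstream. These medians and counts by position have no matching values over all sites, so they cannot be read as particular to the family. The list was divided into 4 equal classes by signal, and the core was found at 9 of 43 sites of the family in the lowest class and at 30 of 42 in the highest. The same shares over the whole list were 29.6% and 70.2%. Of the 49 cores with 1 mismatch, 17 had it at position 5, counted from the 5′ end of the core, beside 41.1% of such cores at all other sites. At position 3 there were 10, beside 11.7%. Repeat sequence, as marked in the assembly, held 27 summits, beside 19.5% of all other sites.

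The replicates both had a peak at 150 of the 157 sites, while 3 sites lacked a peak of replicate 1 and 4 lacked one of replicate 2. Both had one at 62981 of the 64575 other sites. Each replicate list holds 300000 peaks, so a peak of both was likely at any listed site. The log2 ratio of replicate 1 to replicate 2 had an SD of 0.48 over the 150 sites of the family, beside 0.46 at the other sites. It was 0.77 in the lowest class of signal and 0.15 in the highest, beside 0.72 and 0.13 over the whole list. The lowest class, with signals up to 35.4, holds the single Fgf10 site and the promoter site of Fgfr2. The Spry2 promoter site is in the second class, where the SD was 0.43, beside 0.49 over the whole list. The strongest sites upstream of Fgfr2 and Spry2 are in the highest class. The log2 ratio was largest at the Fgf10 site (1.84) and at an intronic site of Frs2 (1.82). The conservative list also held 135 of the 157 sites, beside 87.4% of all other sites.

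**Figure D4:**
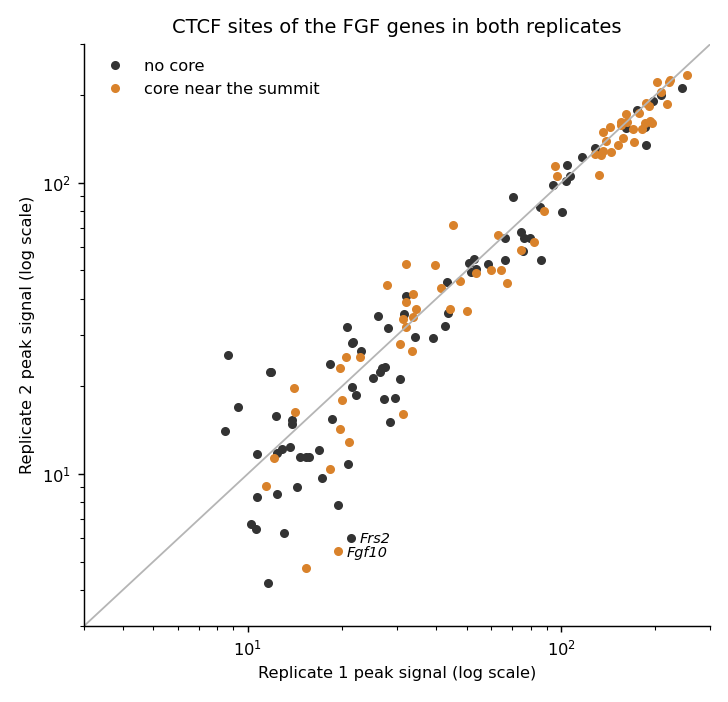
Signal of replicate 2 (vertical axis, log scale) against replicate 1 (horizontal axis, log scale) at the 150 sites of the FGF genes with a peak in both, with equal values on the grey line. Orange points had a core near the summit and black points had none, and the 2 sites with the largest log2 ratio are named. Points lie close to the line at high signal and spread out below about 35.4, the upper bound of the lowest signal class.

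The share of promoters with a site rises with GC content over all genes, so the family was also set beside genes of like GC content, measured over the 500 bp to either side of the outermost 5′ end. All protein-coding genes were divided into 4 equal classes by GC content. From the lowest to the highest class, 1 of 3, 5 of 7, 4 of 13 and 6 of 10 genes of the family had a promoter site. The background shares were 11.4%, 33.3%, 52.0% and 62.6%. If each gene had the background share of its class, 15.7 of the 33 genes would have a promoter site, and 16 had one. Fgf10 was in the lowest class with 40.0% GC. Its outermost annotated 5′ end is that of a transcript upstream of the protein-coding TSS. The genes in the third class without a promoter site were Fgf2, Fgf6, Fgf3, Fgf22, Fgf17, Fgf21, Fgf11, Fgfr4 and Etv4.

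**Figure D5:**
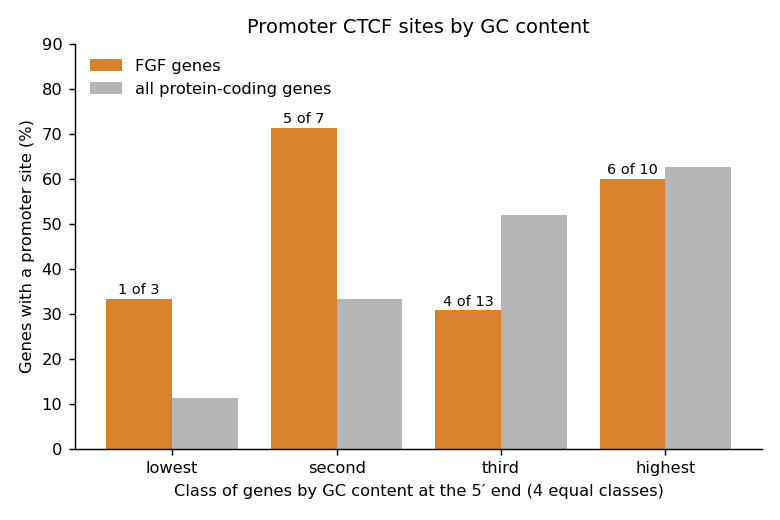
Percent of genes with a promoter site (vertical axis) in each of 4 equal classes of protein-coding genes by GC content at the 5′ end (horizontal axis), for the FGF genes (orange, with counts above the bars) and all protein-coding genes (grey). The family is above the background in the second class (5 of 7) and below it in the third (4 of 13).

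The nearest sites with a core on either side of each gene give the orientation of its flanks. Of the 32 genes with a core on both sides, 13 had cores that pointed towards the gene, 4 had cores that pointed away and 15 had both on the same strand. The background shares were 27.9%, 25.7% and 46.5%. Fgfr2 was among those with cores that faced the gene, with the left one 181.8 kb away and the right one 1.04 kb away. At Fgf10, Fgf9, Spry2 and Fgf18 the flanking cores pointed away from the gene. For Fgf10 these cores lay 72.8 kb and 491.5 kb from the gene.

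Of 30 other genes of the pathway (coreceptors, adapters, phosphatases, heparan sulfate enzymes and kinases), 23 had a promoter site (76.7%, beside 39.8% of all genes), 25 had a site in the gene (beside 56.1%) and 30 had one within 25000 bp (beside 83.5%). At the background share of their GC classes, 14.8 of the 30 would have a promoter site. The median signal of their strongest promoter sites was 76.8. The strongest was at Cbl, a ubiquitin ligase for active receptors, with 436 (replicates 217 and 221). Flrt3, a membrane protein that binds FGF receptors, had 329 (replicates 169 and 160), and Frs3, a paralog of Frs2, had 307 (replicates 157 and 149).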

How the data were processed

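CTCF ChIP-seq peaks of newborn lung (2 replicates, 1 biosample) were used. The signal of each peak and the offset of its summit from the peak start were deposited by the authors in lists on mm10, for each replicate, both pooled, and 2 IDR-thresholded lists. For the aligner, peak caller, signal scaling and IDR threshold, nothing is stated in the labels or file headers, and read depth is not listed. Genes came from GENCODE M21 and sequence from RefSeq GRCm38.p6. The conservative list is not a part of the optimal list, and 70224 peaks of the pooled list are in 1 or both of them. The listed signal is that of the pooled data. For a replicate value, the tallest peak of that replicate no more than 100 bp from the summit was taken. Ranks and shares of weaker sites were taken within a list. Signals of the 2 replicates were compared as listed, without rescaling. A difference in scaling or depth between them was therefore not removed. Gene extents leave out transcripts of support level 5 without a consensus coding sequence where others exist (1656 genes changed). Peaks on other contigs (10) were left out.

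The genes, lists and alternatives were chosen with earlier results of these data known. Values are given for Fgf10, Fgfr2, Fgf9, Spry2, the 8 other genes with the strongest promoter site, the 4 with most sites in the gene, genes without a site, the strongest site of each group, neighbouring members, and the 3 strongest promoters of 30 other pathway genes. Single sites of other genes were added after their values were seen, so that each gene is described. Search functions were tested on simulated data. Python 3.11.15, numpy 2.4.6, pandas 2.3.3, scipy 1.17.1, pysam 0.24.0 and matplotlib 3.10.9 were used.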

Additional observations from a re-analysis of the deposited data

Results flagged for a closer look

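Peaks in neither thresholded list carried the core more often than the sequence beside them. Near the 33 genes, more than 2000 bp from any listed site, 367 such peaks of the pooled list were found, with a median signal of 7.57. The core was within 50 bp of the summit at 30 of them (8.17%, 95% Wilson interval 5.79% to 11.4%). It was found in 5 of 734 windows of the same length placed 1000 bp to either side (0.681%, interval 0.291% to 1.58%). Of the 17 genes without a listed promoter site, 16 had an unlisted peak within 1000 bp of a TSS, and at 9 of these both replicates had a peak. Over all 13028 protein-coding genes without a listed promoter site, the shares were 48.6% and 18.6%, not matched for GC content or number of TSSs. The highest was the one at Fgf10, with 22.1.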

How the results depend on the processing

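Of 54 recomputed values of the main results, 41 stayed within 1.5 times (counts) or within the interval or SD (shares and spread), and 13 did not. Some of these values could hardly move. The 32 of 33 genes with a site in the window could not rise past 1.5 times. The spread was the median absolute log2 ratio, 0.236 with a replicate peak within 100 bp or within 50 bp. Its band of 1 SD (0.48) to either side was wide. The distance from a TSS to the nearest site, recomputed for the branching genes, was tallied apart: 6 values stayed within 1.5 times and 6 did not. In the conservative list it went from 599 to 1745 bp at Spry2 and from 48470 to 117678 bp at Fgf10, and stayed at 532 bp at Fgf9. Over all 66 recomputed values, 47 stayed and 19 did not. Genes with a promoter site numbered 15 in the conservative list (38.0% of all genes), of which 14 were among the 16. They numbered 16 with replicate 2 alone (40.4% of all genes) and 17 with replicate 1 alone (40.3%). They fell to 6 with the 32366 sites of highest signal, beside 19.2% of all genes. They were 9 within 500 bp of a TSS (33.2% of all genes), 24 within 5000 bp (56.6%) and 30 within 25000 bp (79.9%). With the outermost 5′ end of each gene only they were 13, and with the TSSs of the GENCODE basic set 14. For these choices of TSS no share over all genes is given, so the 48.5% beside 39.8% was not checked against them. With the 32366 sites of highest signal, 12 genes held a site in the gene, 77 sites remained and the core share was 61.0%. The core share rises with signal over the whole list. Apart from the promoter counts, the recomputed values are given here without the same share over all genes or sites. The core share was 10.2% without a mismatch and 71.3% with 2. A flank of 5000 bp gave 95 sites. The gene records, an alternative added after seeing the data, gave 295 sites and 150 at Fgfr2. Fgf10 had 0 sites in the conservative list, 1 with replicate 2 alone and 2 with replicate 1 alone. With replicate 2 alone that site was the promoter peak 118 bp from the TSS, and the intronic site was lost. Leaving out a replicate gave 20 to 21 genes with a site in the gene, 32 either way with one in the window, 157 to 161 sites, core shares of 42.7% to 45.3%, 11 sites either way at Fgfr2, 3 to 4 at Fgf9 and 4 either way at Spry2. No paired analysis was possible because there is 1 group. Depth is unknown, and a gene without a listed site is not shown to be unbound.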
